A study of Mus musculus with 8 samples.

Results

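The colony-stimulating factor and progenitor cytokine receptors are the cell surface proteins through which CSF-1, GM-CSF, G-CSF, FLT3 ligand, stem cell factor and interleukin-6 act on blood-forming and myeloid cells. They were taken by name, as the genes Csf1r, Csf2ra, Csf2rb, Csf2rb2, Csf3r, Flt3, Kit, Il6ra and Il6st, and all 9 were found among the 56748 genes of the count table. The libraries hold RNA of sorted spleen monocytes with high Ly6C, the classical kind that leaves the blood for inflamed tissue, taken on day 7 after an aneurysm was induced. One group came from Olfr2 KO mice (4 libraries), which lack an olfactory receptor gene, and the other from WT mice (4 libraries); both had the aneurysm, so that no library stands for uninjured mice. The labels give no age, no strain and no account of how the deletion was made, and they do not say whether the libraries of a genotype came from separate animals, so that the p-values measure only the spread between these libraries.

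CSF-1 acts through a receptor tyrosine kinase that mononuclear phagocytes need for survival, and FLT3 ligand and stem cell factor act through related kinases that mark earlier progenitors and dendritic cell precursors. GM-CSF and interleukin-6 receptors have no kinase of their own: a ligand-binding alpha chain joins a signalling chain, which is shared with other cytokines and works through JAK kinases and STAT factors. In mice the beta chain exists as a pair of genes, Csf2rb, the common chain of GM-CSF, interleukin-3 and interleukin-5, and Csf2rb2, a copy that serves interleukin-3 alone. G-CSF acts through a single chain that is best known from neutrophils and is also carried by monocytes.

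Libraries held 17258427 to 21728794 counts in KO and 16111725 to 19048245 counts in WT. A total of 11222 genes had enough counts to be tested, among them 8 of the 9 receptors. Olfr2 had 0 counts in all 8 libraries, where 3 counts, taken as the floor, correspond to between 0.139 and 0.186 CPM (counts per 1000000 counts of a library, with TMM scaling), so that the deletion could not be checked from RNA. Ly6c2, the gene of the antigen used in the name of these cells, lay between 4727 and 6378 CPM in KO and between 4058 and 4890 CPM in WT. KO 1 and KO 2 stood apart. Their summed level of 13 neutrophil markers was 2438 and 3728 CPM, against 782 and 605 CPM in KO 3 and KO 4 and between 278 and 616 CPM in WT. Mmp8 made up most of the sum in KO 3, KO 4 and WT. Without Mmp8 the sum was 1734 and 2909 CPM in KO 1 and KO 2. In KO 3 and KO 4 it was then 144 and 90.2 CPM, and in WT between 48.4 and 144 CPM. Of the 13 markers, 12 had a higher mean in KO, and Stfa2l1 was at 0. The column numbers of the count table fall in a 1600 series (libraries 1 and 2 of each genotype) and a 1700 series (libraries 3 and 4), whose meaning the labels do not give; each genotype has libraries in both.

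None of the 8 tested receptors passed an adjusted p of 0.05 between KO and WT in edgeR's quasi-likelihood test, in which 1.06% of all tested genes passed (119 genes; 0.838% lower in KO and 0.223% higher). The GM-CSF receptor alpha chain Csf2ra came closest, with a mean of 27.7 CPM in KO and 44.4 CPM in WT and an adjusted p of 0.0792. In 3 receptors, Csf2ra, Csf2rb2 and Il6ra, every KO library lay below every WT library, an arrangement that 6.06% of all tested genes showed. The same 3 had an unadjusted p under 0.05, as did 20.9% of all tested genes, 12.0% in the direction of a lower KO. No receptor had every KO library above every WT library, against 5.35% of all tested genes. The log2 differences of KO over WT were negative for 6 receptors and positive for 2, Csf3r and Flt3, and their median was −0.36, against −0.00 over all tested genes. In these bulk libraries fewer cells that carry a receptor and less receptor RNA per cell cannot be told apart.

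**Figure D1:**
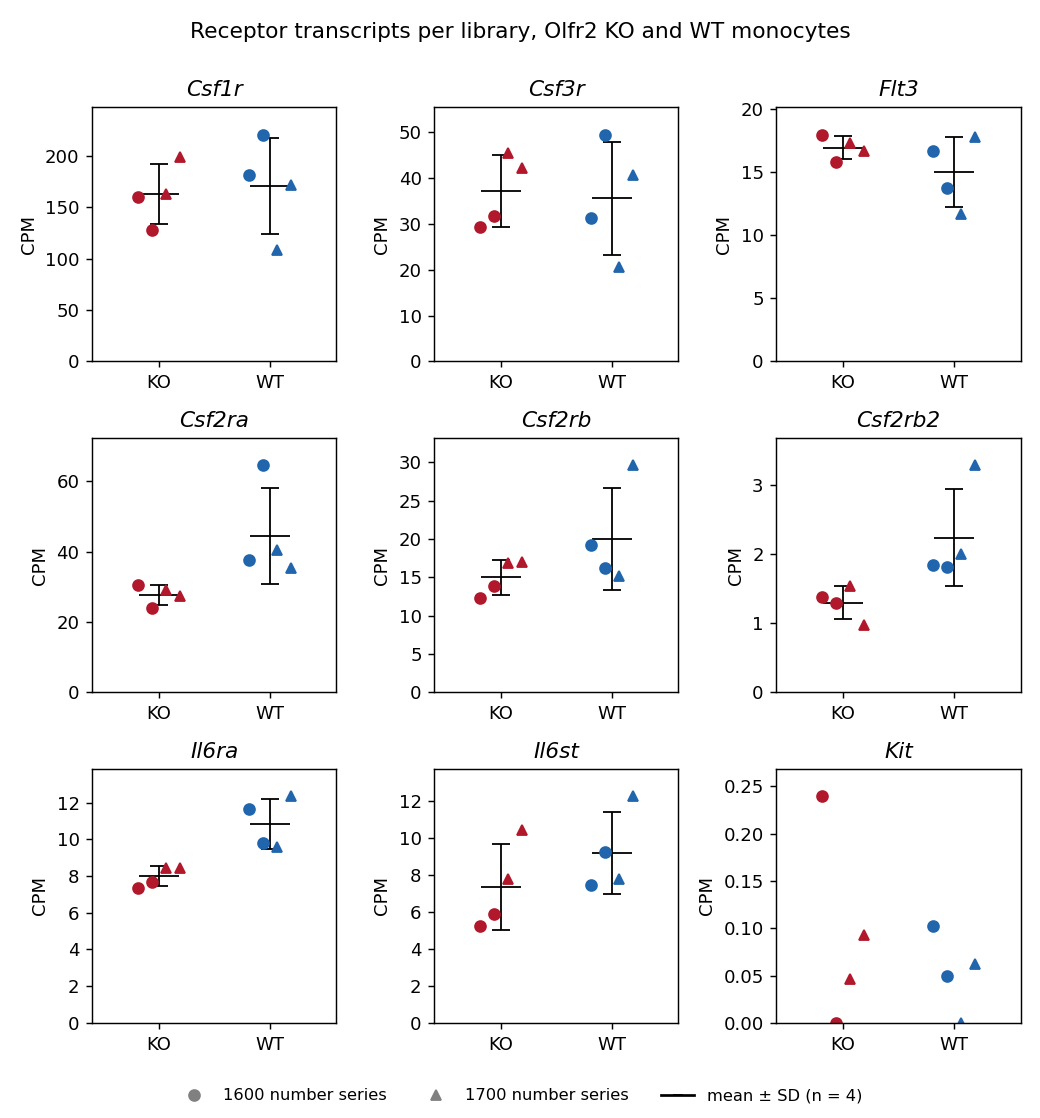
CPM of each receptor (vertical axis, one panel per gene, starting at 0) in the 4 KO and the 4 WT libraries, with circles for the 1600 series, triangles for the 1700 series and bars for the mean and the SD; Kit has points only. The KO libraries of Csf2ra, Csf2rb2 and Il6ra all sit below the WT libraries, and the groups overlap in the other panels.

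The receptors covered a wide range of levels, and Csf1r was the most abundant. Divided by the length of the merged exons, Csf1r averaged 28.2 CPM per kb in KO and 29.5 CPM per kb in WT, which placed it among the top 16.3% of tested genes. Csf2ra followed with 9.66 CPM per kb in KO and 15.5 CPM per kb in WT, and Csf3r with 10.3 CPM per kb in KO and 9.85 CPM per kb in WT. Flt3 stood at 2.74 CPM per kb in KO and 2.42 CPM per kb in WT, close to Csf2rb at 2.06 CPM per kb in KO and 2.75 CPM per kb in WT. Lower still were Il6ra (0.925 CPM per kb in KO, 1.26 in WT), Il6st (0.663 in KO, 0.829 in WT) and Csf2rb2 (0.274 in KO, 0.472 in WT), and Kit was at the floor. Neighbours in this order kept it in all 8 libraries, with exceptions in 2 pairs. Csf2ra was above Csf3r in 1 of 4 KO libraries and in 4 of 4 WT libraries, and Flt3 was above Csf2rb in 4 of 4 KO libraries and in 2 of 4 WT libraries, so that these neighbours had no fixed order over the 8 libraries.

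The ligand-binding alpha chain of the GM-CSF receptor was lower in every KO library than in any WT library, and so was the interleukin-3-specific beta copy, while the common beta chain overlapped between the genotypes. Csf2ra lies on chromosome 19 (chr19:61223957-61228429, minus strand, GENCODE M21 on GRCm38). It had 30.5, 23.9, 29.1 and 27.4 CPM in KO 1 to KO 4, against 37.6, 64.5, 40.4 and 35.2 CPM in WT 1 to WT 4. The 4 KO libraries stayed close together, all WT libraries lay above them, and WT 2 was far above the rest. The means were 27.7 ± 2.84 CPM in KO and 44.4 ± 13.6 CPM in WT (SD, n = 4 each), and the log2 difference was −0.68 ± 0.19 (SE) with an adjusted p of 0.0792 in edgeR (unadjusted 0.00271). The gene passed when no filter on low counts was applied (adjusted p 0.00383 in edgeR) and in DESeq2 (adjusted p 0.0246). Over all genes, 742 of 21213 tested passed without the filter and 784 of 11222 in DESeq2, against 119 of 11222 in the main fit. Csf2ra did not pass in the other 18 alternative fits, limma-voom among them (adjusted p 0.1085). Without WT 2 the log2 difference was −0.44.

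The signalling chain Csf2rb (chr15:78325752-78353847, plus strand) was less separated. Its libraries had 12.3, 13.8, 16.8 and 17.0 CPM in KO and 19.2, 16.1, 15.1 and 29.6 CPM in WT. WT 4 was far above all others, and KO 3 and KO 4 overlapped WT 2 and WT 3. The means were 15.0 ± 2.29 CPM in KO and 20.0 ± 6.62 CPM in WT, a log2 difference of −0.41 ± 0.21 that did not pass (adjusted p 0.282, edgeR). Without WT 4 it was −0.16, and it was also −0.16 under the length and GC offsets described below.

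Csf2rb2 lies 20030 bases away (chr15:78282507-78305721, minus strand) and was an order of magnitude lower. It had 1.38, 1.29, 1.54 and 0.98 CPM in KO, against 1.85, 1.82, 2.00 and 3.29 CPM in WT, from 98 counts over the KO libraries and 163 over the WT libraries. No KO library reached a WT library, and WT 4 was again the highest. The log2 difference was −0.78 ± 0.30, with an adjusted p of 0.161 in edgeR (unadjusted 0.0200).

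The beta chains are near-identical copies, so their counts depend on how reads that fit both were assigned, which is not given in the sources used here. Over 2628 aligned bases of coding sequence, Csf2rb (2688 bases) and Csf2rb2 (2634 bases) were 95.2% identical, and their longest run without a difference was 242 bases. Of the windows of 100 bases in the Csf2rb coding sequence, 11.0% occurred unchanged in Csf2rb2, and of windows of 50 bases 26.0% did. The stretch that separates the genes best is shown because a read can be assigned only where the copies differ. These 90 bases start at coding base 308 of Csf2rb and 311 of Csf2rb2 in the GENCODE M21 transcripts, and capitals mark the 16 bases that differ.
Csf2rb: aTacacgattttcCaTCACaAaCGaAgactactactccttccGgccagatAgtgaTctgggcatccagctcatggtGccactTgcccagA
Csf2rb2: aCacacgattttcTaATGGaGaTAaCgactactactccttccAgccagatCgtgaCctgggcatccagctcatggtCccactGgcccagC

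The interleukin-3-specific copy made up a small share of the beta chain counts in both genotypes. Csf2rb2 took 10.0%, 8.54%, 8.40% and 5.43% of the counts of the pair in KO, against 8.80%, 10.1%, 11.7% and 10.0% in WT. KO 4 was the lowest, with a 95% Wilson interval of 3.58% to 8.15%, and WT 3 the highest, and KO 1 lay inside the WT range. Such intervals cover counting error only. The mean share was 8.10 ± 1.93% in KO and 10.1 ± 1.18% in WT (SD, n = 4 each), a difference of −2.04 percentage points (exact two-sided permutation test, p = 0.0857, 0.171 adjusted over the 2 ratios tested here, smallest possible p 0.0286). Without KO 4 the difference was −1.15 percentage points.

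**Figure D2:**
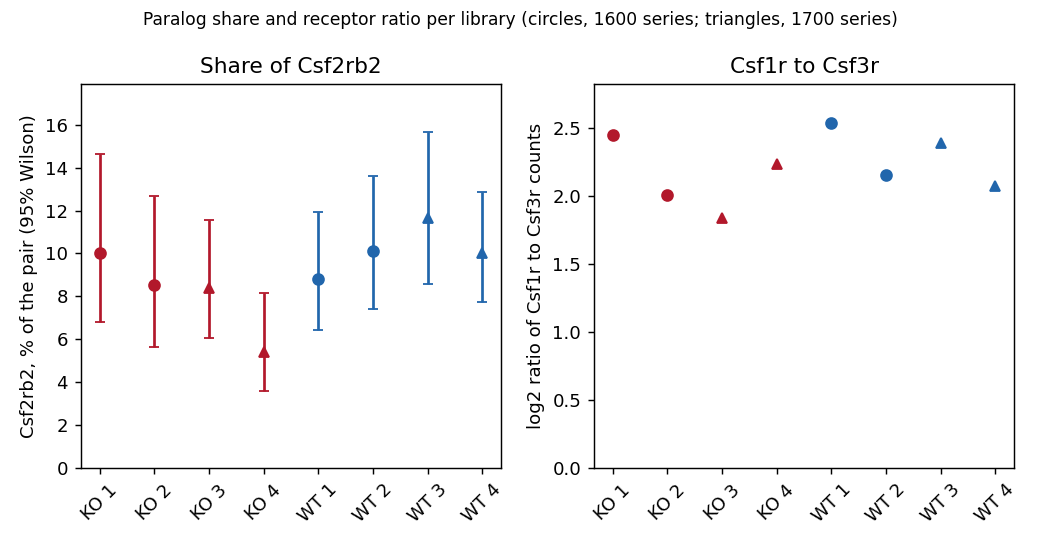
Csf2rb2 counts as a percentage of Csf2rb2 and Csf2rb counts together, with 95% Wilson intervals (left), and log2 ratio of Csf1r to Csf3r counts (right), in each KO and WT library. KO 4 is lowest on the left, at 5.43%, and the genotypes overlap in both panels.

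RefSeq promoters (250 bases before to 50 bases after the start, GRCm38.p6) were taken for 7 of the receptors. That of Csf1r was left out of the set, and Csf2rb had no entry. The 7 promoters were searched on both strands for GAGGAA, the core that the ETS factor PU.1 (Spi1) binds. They were also searched for TTNNGNAA, letters that C/EBP factors recognise. GAGGAA was in 5 of the 7 and in 28.3% of all 32851 promoters, and TTNNGNAA in 3 of the 7 and in 40.7% of all. Both were present in Csf2ra, Csf2rb2 and Il6ra, and in 11.8% of all promoters, while Csf3r and Kit had GAGGAA alone and Flt3 and Il6st had neither. The promoters with both are printed. They belong to the 3 genes whose libraries did not overlap, a grouping taken from these same data, so that the match is no test. Csf1r and Csf2rb, whose libraries overlapped, are missing from the 7 and could break the match. Whether the letters bear on the differences was not tested, and 7 promoters without Csf1r and Csf2rb are few. Capitals mark the matches, which read TTCCTC or TTNCNNAA where they lie on the other strand. One TTCCTCAA in Csf2rb2 and one in Il6ra fit both searches at once.
Csf2ra, chr19:61228369-61228668, minus strand: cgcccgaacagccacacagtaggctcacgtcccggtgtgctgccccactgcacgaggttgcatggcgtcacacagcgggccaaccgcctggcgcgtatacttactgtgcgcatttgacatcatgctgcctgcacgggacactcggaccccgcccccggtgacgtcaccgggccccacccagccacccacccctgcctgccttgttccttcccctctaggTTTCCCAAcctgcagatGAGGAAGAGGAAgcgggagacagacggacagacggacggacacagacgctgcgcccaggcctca
Csf2rb2, chr15:78305672-78305971, minus strand: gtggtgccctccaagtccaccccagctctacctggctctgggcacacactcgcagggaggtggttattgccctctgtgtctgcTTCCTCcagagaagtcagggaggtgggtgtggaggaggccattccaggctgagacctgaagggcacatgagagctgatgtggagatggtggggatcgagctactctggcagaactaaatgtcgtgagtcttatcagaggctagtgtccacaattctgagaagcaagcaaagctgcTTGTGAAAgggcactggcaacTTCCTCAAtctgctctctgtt
Il6ra, chr3:89913147-89913446, minus strand: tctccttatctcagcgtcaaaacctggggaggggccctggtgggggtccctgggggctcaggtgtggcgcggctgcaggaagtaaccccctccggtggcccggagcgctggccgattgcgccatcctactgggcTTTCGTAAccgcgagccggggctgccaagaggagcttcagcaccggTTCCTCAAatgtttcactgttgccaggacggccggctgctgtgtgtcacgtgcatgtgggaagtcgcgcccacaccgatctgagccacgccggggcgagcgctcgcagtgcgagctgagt

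A match of letters is a description of the window, and binding was not measured. Spi1 itself had 493, 363, 414 and 490 CPM in KO and 542, 519, 549 and 556 CPM in WT. Every KO library was below every WT library, and the log2 difference of −0.30 ± 0.12 did not pass. Cebpb, given among the pathway genes below, was also lower in every KO library and did not pass. Cebpa, Cebpd and Cebpe overlapped between the genotypes, with log2 differences of −0.57, −0.56 and −0.17, and did not pass. Any link of Spi1 or of these C/EBP genes to the receptor levels was not tested.

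Csf1r and Csf3r, the receptors of the monocyte and granulocyte growth factors, had means that differed between the genotypes by less than the SD of either. Csf1r (chr18:61100598-61132149, plus strand) had 160, 128, 163 and 199 CPM in KO and 181, 221, 109 and 171 CPM in WT. The lowest and the highest library were both WT, and the groups overlapped throughout. The means were 163 ± 29.0 CPM in KO and 171 ± 46.4 CPM in WT, with a log2 difference of −0.07 ± 0.20 (adjusted p 0.870, edgeR).

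Csf3r (chr4:126024550-126044440, plus strand) had 29.3, 31.8, 45.5 and 42.3 CPM in KO and 31.3, 49.5, 20.7 and 40.7 CPM in WT. WT 3 was lowest and WT 2 highest, as in Csf1r. The means were 37.2 ± 7.84 CPM in KO and 35.6 ± 12.4 CPM in WT, with a log2 difference of 0.07 ± 0.24 (adjusted p 0.898, edgeR). KO 1 and KO 2, which carried the most neutrophil marker RNA, had the lowest Csf3r of the KO libraries. Classical monocyte markers, a list of 8, summed to 43058, 55906, 27776 and 29268 CPM in KO and 21161, 16410, 20691 and 21480 CPM in WT, while Csf1r was lowest among KO libraries in KO 2, where that sum was highest. Chil3 made up most of the sum in KO; without it the list summed to between 9300 and 11855 CPM in KO and between 8879 and 9587 CPM in WT.

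The signs of these differences were opposite in the 2 number series. Csf1r differed by −0.48 ± 0.22 (log2) in the 1600 series and by 0.37 ± 0.22 in the 1700 series, and Csf3r by −0.40 ± 0.31 and 0.52 ± 0.31 in the same order. The difference between the series was 0.85 ± 0.31 for Csf1r (unadjusted p 0.0183, adjusted p 0.207, edgeR interaction term) and 0.92 ± 0.43 for Csf3r (adjusted p 0.335). No receptor passed this test, in which 0.784% of all tested genes did. Both genes passed it without WT 4 (1.22 ± 0.25, adjusted p 0.0260 for Csf1r; 1.49 ± 0.33, adjusted p 0.0325 for Csf3r) and with no filter on low counts (adjusted p 0.00398 and 0.0230). Over all genes 628 passed without WT 4 and 645 with no filter, against 88 in all 8 libraries. In the other receptors the signs were alike in both series: Csf2ra differed by −0.91 ± 0.24 in the 1600 series and by −0.42 ± 0.24 in the 1700 series, and Csf2rb2 by −0.46 ± 0.42 and −1.06 ± 0.41. Each series holds 2 libraries of a genotype, so that 1 library sets much of such a value.

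**Figure D3:**
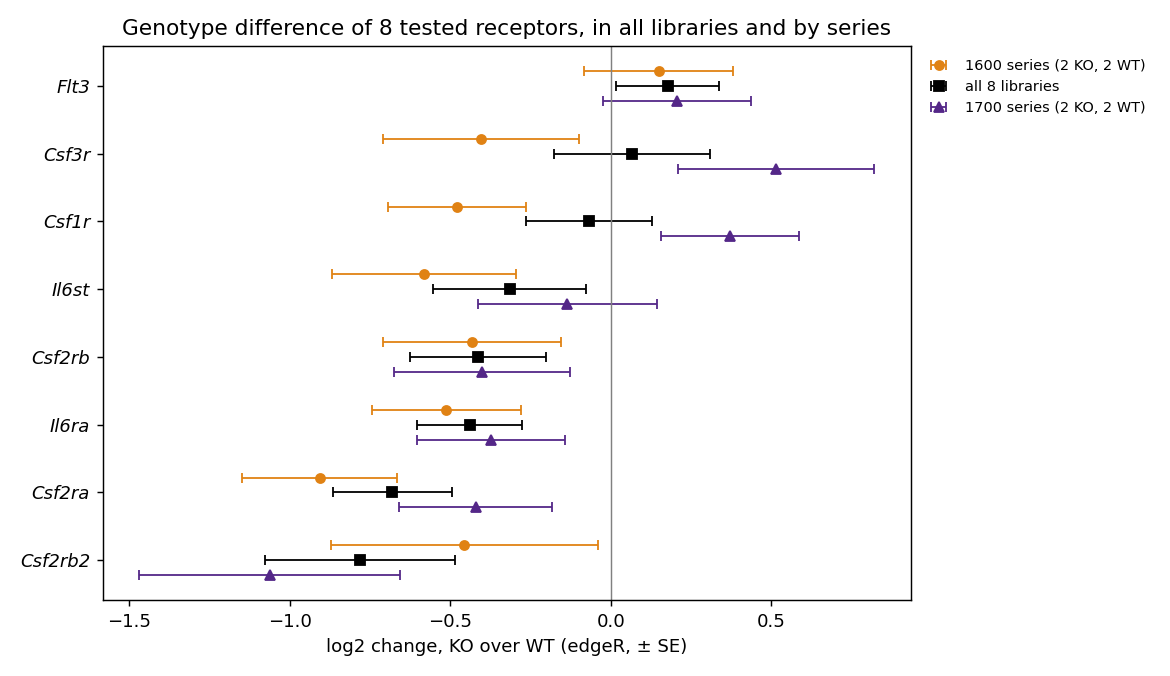
Log2 change of KO over WT with its standard error (horizontal axis) for the 8 tested receptors, from all 8 libraries (squares) and within the 1600 series (circles) and the 1700 series (triangles). Csf1r and Csf3r lie on opposite sides of 0 in the 2 series, while Csf2ra, Csf2rb, Csf2rb2, Il6ra and Il6st lie below 0 in both.

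The balance of the CSF-1 and G-CSF receptors overlapped between the genotypes. The log2 ratio of Csf1r to Csf3r counts was 2.45, 2.01, 1.84 and 2.24 in KO and 2.54, 2.16, 2.39 and 2.07 in WT. KO 3 was lowest and WT 1 highest. The mean was 2.13 ± 0.264 in KO and 2.29 ± 0.213 in WT (SD, n = 4 each), a difference of −0.15 (exact two-sided permutation test, p = 0.4).

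The kinases that mark progenitors and dendritic cell precursors were unlike each other: Flt3 was clearly present and Kit was not. Flt3 (chr5:147330741-147400489, minus strand) had 17.97, 15.8, 17.3 and 16.6 CPM in KO and 16.7, 13.7, 11.7 and 17.7 CPM in WT. The KO libraries lay close together near the upper end of the wider WT range, and KO 1 was the highest of all. The means were 16.9 ± 0.922 CPM in KO and 15.0 ± 2.77 CPM in WT, a log2 difference of 0.18 ± 0.16 (adjusted p 0.551, edgeR). With 1 library left out it ranged between 0.077 (without WT 3) and 0.27 (without WT 4).

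Kit (chr5:75574916-75656722, plus strand), the stem cell factor receptor of progenitors and mast cells, had 4, 0, 1 and 2 counts in KO and 2, 1, 0 and 1 counts in WT. That is 7 counts in all KO libraries and 4 in all WT libraries, and only KO 1 exceeded the floor of 3 counts. No fold is given.

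Flt3 is also a marker of dendritic cells and of progenitors, and the levels of those markers differed between libraries. The summed level of 10 conventional dendritic cell markers, Flt3 among them, was 746, 470, 1741 and 1980 CPM in KO and 2174, 2453, 2423 and 1899 CPM in WT. Of the 10, 5 had a higher mean in KO, and H2-Ab1 made up most of the sum in every library; without it the list summed to 156, 136, 607 and 555 CPM in KO and 276, 500, 370 and 266 CPM in WT. Flt3 itself was highest in KO 1, where the full sum was below those of all libraries but KO 2. Of the defining genes, Zbtb46 had at most 7, Xcr1 at most 3 and Clec9a at most 13 counts in any library, whereas Cd209a reached 9856 counts in KO 3, and Siglech of plasmacytoid dendritic cells had 0 in all 8. The summed level of 12 progenitor markers, Flt3 and Kit among them, was 176, 261, 56.4 and 41.3 CPM in KO and 61.9, 46.1, 41.6 and 58.1 CPM in WT. Prtn3 was the largest of the list. Without Prtn3 the sum was 94.3, 143, 38.4 and 27.6 CPM in KO and between 21.4 and 27.5 CPM in WT. Elane made up 56.8 and 93.2 CPM of it in KO 1 and KO 2. Cd34 lay between 1.32 and 2.09 CPM in KO and between 1.44 and 2.01 CPM in WT. Gata2 was at 0 in all libraries, and 8 of the 12 had a higher mean in KO. Mast cell and basophil markers summed to between 2.10 and 6.11 CPM in KO and between 1.52 and 5.96 CPM in WT, with Fcer1a and Ms4a2 at 0. Hdc made up nearly all of this sum. Without Hdc it was between 0.047 and 0.24 CPM in KO and between 0 and 0.19 CPM in WT, near the floor. The part of these other cells in the Flt3, Kit and Csf3r values was not tested.

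**Figure D4:**
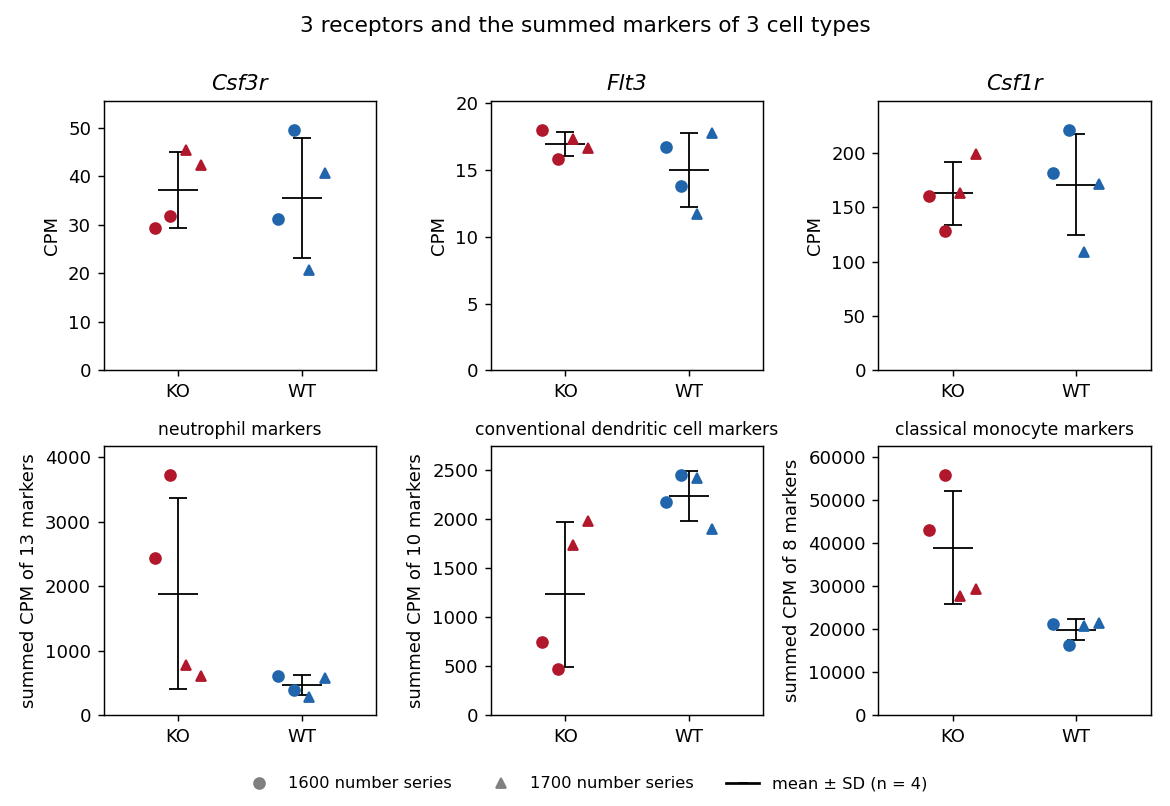
CPM of Csf3r, Flt3 and Csf1r (upper panels) and summed CPM of neutrophil, conventional dendritic cell and classical monocyte markers (lower panels) in the KO and WT libraries, with means and SDs (n = 4) and the number series as point shapes. KO 1 and KO 2, the red circles, have the highest neutrophil marker sums, 2438 and 3728 CPM, and the lowest Csf3r of the KO libraries.

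The chains of the interleukin-6 receptor were both low, and only the ligand-binding chain had no overlap between the genotypes. Il6ra (chr3:89864059-89913196, minus strand) had 7.37, 7.69, 8.45 and 8.45 CPM in KO, against 11.7, 9.82, 9.57 and 12.3 CPM in WT. The KO libraries lay within a narrow band below every WT library. The means were 7.99 ± 0.550 CPM in KO and 10.8 ± 1.37 CPM in WT, a log2 difference of −0.44 ± 0.16 with an adjusted p of 0.156 in edgeR (unadjusted 0.0180).

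Il6st (chr13:112464070-112510086, plus strand), the signalling chain that interleukin-6 shares with interleukin-27, oncostatin M and leukaemia inhibitory factor, had 5.27, 5.91, 7.80 and 10.4 CPM in KO. The WT libraries had 7.45, 9.28, 7.78 and 12.3 CPM. KO 1 and KO 2 were below every WT library, and KO 3 and KO 4 lay inside the WT range. The log2 difference was −0.31 ± 0.24 (adjusted p 0.474, edgeR). It was −0.15 without WT 4, −0.18 without KO 1 and −0.54 without KO 4.

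The interleukin-6 receptor results depended on a joint correction for transcript length and GC content. Il6ra and Il6st have longest transcripts of 8639 and 8678 bases, longer than 96.8% and 96.9% of tested genes, whose median was 3011 bases. With offsets for transcript length and GC content in the edgeR fit, the log2 difference of Il6ra was 0.07 and that of Il6st 0.10, so that both lost their sign. Csf2ra, with a longest transcript of 2277 bases and a GC content higher than 92.4% of tested genes, stayed at −0.42 (adjusted p 0.202), and Csf2rb2 at −0.58 (adjusted p 0.321). Csf1r also turned, to 0.18, and over the 8 receptors the median became 0.09, with 3 negative. The offsets change length and GC content together, and the part of each was not tested.

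Of the ligands of these receptors and of receptors that share their chains, 6 of 17 had enough counts to be tested in the monocytes, and 0 passed. Csf2, Il3 and Il5 had 0 counts in all libraries and Csf1 at most 11 counts in any. Flt3l, the ligand of FLT3, averaged 2.29 ± 0.140 CPM in KO and 2.87 ± 0.658 CPM in WT. Il6 averaged 1.28 ± 0.502 CPM in KO and 0.673 ± 0.412 CPM in WT, the only positive log2 difference of the list, at 0.93 ± 0.47, and it did not pass. Il27, a subunit of interleukin-27, had the smallest p, with 5.25 ± 1.61 CPM in KO and 9.40 ± 3.04 CPM in WT (log2 −0.84 ± 0.27, adjusted p 0.110, edgeR).

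Of the 7 receptors that pair with these chains, 4 were tested and 0 passed, while Il5ra, Osmr and Cntfr had 0 counts in all libraries. Il3ra, the interleukin-3 receptor alpha chain that joins Csf2rb or Csf2rb2, had 4.19, 1.72, 2.34 and 2.55 CPM in KO and 4.16, 6.14, 4.00 and 5.90 CPM in WT. KO 1 was level with WT 1 and above WT 3, and the other KO libraries were below all WT libraries. The log2 difference was −0.90 ± 0.28 (adjusted p 0.103, edgeR).

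Next to the receptors, 29 of 30 kinases, adaptors and phosphatases were tested; 0 passed, 22 had a negative log2 difference, and their median was −0.24. Gab2, an adaptor that couples GM-CSF and CSF-1 receptors to PI3 kinase, had the smallest p, with 0.723 ± 0.282 CPM in KO and 1.93 ± 0.897 CPM in WT (log2 −1.40 ± 0.41, adjusted p 0.0958, edgeR). Under the offsets for length and GC the median of this list was 0.01.

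Among 18 inhibitors of receptor signalling, of which 14 were tested, 1 passed, and it fell. Sh2b3, the adaptor LNK that restrains JAK2 and KIT signalling, had 6.35, 4.67, 4.67 and 6.55 CPM in KO, against 8.73, 12.7, 10.4 and 10.8 CPM in WT. Every KO library was below every WT library. The log2 difference was −0.94 ± 0.19 with an adjusted p of 0.0432 (edgeR). The call was lost without any one of KO 1, KO 2, KO 3, WT 1, WT 3 or WT 4, with adjusted p between 0.0521 and 0.142, and without KO 1 and KO 2 together (adjusted p 0.130); it was also lost under the offsets for length and GC (log2 −0.60, adjusted p 0.130). Of the 14 tested inhibitors 11 had a negative log2 difference, with a median of −0.35.

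Of 6 proteases and partners that cut receptors from the cell surface, 4 were tested and 0 passed. Rhbdf2, the iRhom protein that carries the protease ADAM17 to the surface, where CSF-1 and interleukin-6 receptors are among its substrates, had 4.14 ± 1.08 CPM in KO and 7.32 ± 0.948 CPM in WT (log2 −0.82 ± 0.22, adjusted p 0.0744, edgeR). Of 17 genes induced by STAT3 or STAT5 below such receptors, 12 were tested, 0 passed and 11 had a negative log2 difference, with a median of −0.40. Cebpb had 178, 59.2, 77.4 and 88.7 CPM in KO, against 244, 213, 240 and 232 CPM in WT. All KO libraries lay below the WT libraries, KO 1 far above the other KO libraries (log2 −1.20 ± 0.30, adjusted p 0.0844, edgeR). Cebpb passed without KO 1 (log2 −1.62, adjusted p 0.00159) and without KO 1 and KO 2 (log2 −1.47, adjusted p 0.00192).

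Of 15 transcription factors known from myeloid receptor genes, 10 were tested, 0 passed and 9 had a negative log2 difference, with a median of −0.35. Klf4, a factor of monocyte differentiation, had the smallest p, with 1.51 ± 0.317 CPM in KO and 3.73 ± 1.58 CPM in WT (log2 −1.30 ± 0.32, adjusted p 0.0611, edgeR). Over all these lists, 76 of 105 genes were tested and 1 passed, where 1.06% of all tested genes did. A negative log2 difference was seen in 60 of the 76, with a median of −0.31, against −0.00 over all tested genes. Under the length and GC offsets it was seen in 47 of the 76, with a median of −0.16, and without KO 1 and KO 2 the median was −0.18. In 12 of the 76 every KO library was below every WT library (6.06% of all tested genes), and in 1, the protease gene Adam10, every KO library was above (5.35%). The lists share genes such as Cebpb and Socs1, each counted once here.

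**Figure D5:**
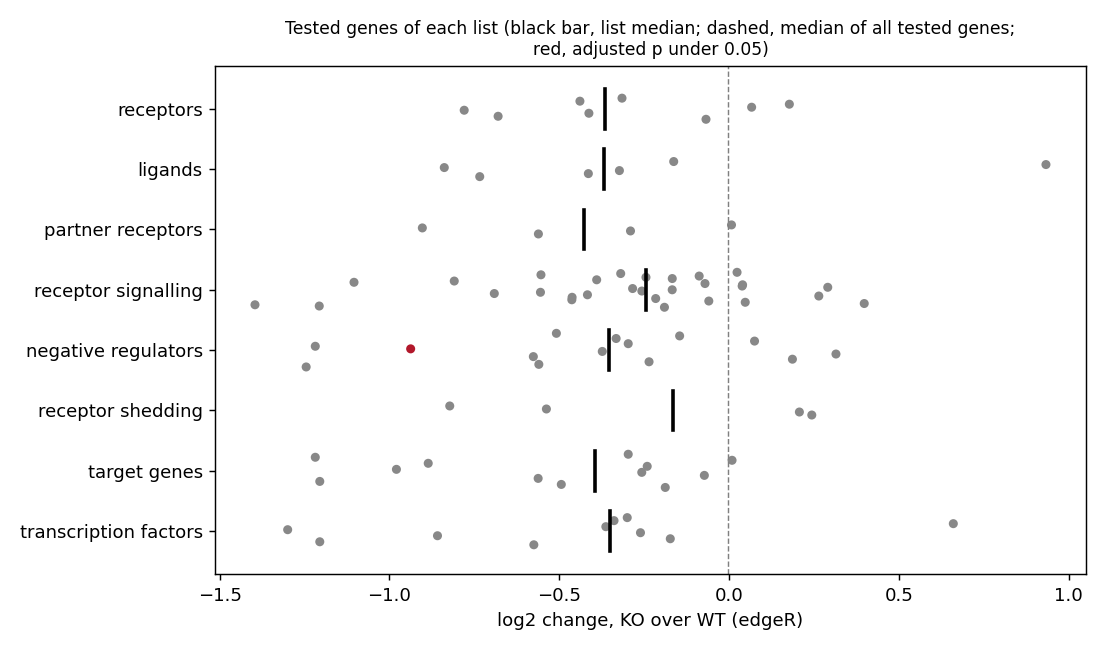
Log2 change of KO over WT (horizontal axis) of the tested genes of the receptors and of each list, one point per gene, with the list median as a black bar and the median of all tested genes as a dashed line. The medians of the 7 pathway lists lie between −0.43 and −0.17, and the 1 gene that passed, in red, is Sh2b3 at −0.94.

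The genes most like each receptor were found by the root mean square difference of log2 CPM, each gene centred on its own mean, over the 8 libraries and 10024 genes. Csf2rb was nearest to Jak2, the kinase that GM-CSF receptor chains bind, at 0.0789 log2 units. Jak2 had 3.17, 3.44, 4.34 and 4.74 CPM in KO and 5.81, 4.27, 4.00 and 7.70 CPM in WT, with WT 4 and WT 1 highest as in Csf2rb. Csf1r was nearest to Ifnar1, a chain of the interferon alpha receptor, at 0.0930, and Csf2ra to Padi4 at 0.112. Csf3r was nearest to Zscan22 at 0.102, Flt3 to Dctn4 at 0.0548, Il6ra to Ywhag at 0.0875, Il6st to Zc3h7a at 0.136 and Csf2rb2 to Fry at 0.147. Csf1r and Csf3r differed from each other by 0.221, and Csf3r ranked 454 among the genes nearest to Csf1r. Csf2ra and Csf2rb, the chains of the GM-CSF receptor, differed by 0.499, and Csf2rb ranked 4860 among the genes nearest to Csf2ra. Among the receptors Il6ra was nearest to Csf2rb, at 0.191 and rank 28. These distances describe 8 libraries that share number series and depth, and carry no test.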

How the data were processed

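Per the labels' protocols, cDNA of the sorted Ly6Chigh spleen monocytes came from SMART-Seq v4, a kit that primes with oligo-dT. For the 8 libraries the authors deposited raw read counts per gene in 1 table. Per the submitters' processing notes, reads were handled with HISAT2 2.0.5 and featureCounts 1.5.0-p3 on GRCm38. Which annotation, strand setting and rule for reads that fit several genes were used is not given in the sources used here. With oligo-dT priming and PCR, how well a transcript is recovered can vary with its length and with RNA quality, and no molecular identifiers separate PCR copies. Floors of 3 counts therefore cover counting error only. Genes annotated on the opposite strand overlap Csf1r (Hmgxb3, 157 counts in all libraries), Flt3 (Gm26597, 63 counts) and Il6ra (Gm42809, 49 counts), and reads of such pairs cannot be told apart without strand.

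The deposited counts were tested with edgeR 4.0.16 in R 4.3.3 (filterByExpr, TMM, robust quasi-likelihood fit, KO over WT, two-sided), with Benjamini-Hochberg adjustment over all 11222 tested genes at 0.05. These genes held 99.9% of the counts. The common biological coefficient of variation was 22.4%. CPM were computed with TMM-scaled library sizes, and log2 CPM used a prior count of 2. The interaction of genotype and number series was tested in a second fit over all 8 libraries. Shares and ratios of counts (0.5 added for the log2 ratio) were tested by exact permutation over 70 assignments. Any pair of libraries of 1 genotype varied beyond counting noise (chi-square per degree of freedom 16.5 to 77.2), and each library was taken as 1 replicate.

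Positions, exon lengths and coding sequences were read from GENCODE M21 (GRCm38), where the table shares 52125 of its 56748 gene identifiers, and promoters from RefSeq on GRCm38.p6. The receptors, pathway lists and markers were chosen with earlier results of these data known. From each list, genes past 0.05 were named, up to 3 in each direction, or else the 1 with the smallest p. The ligands at or near 0, Flt3l, Il6, Spi1, Cebpa, Cebpd, Cebpe, Jak2 and Adam10 were named besides. Some of them were named after their values were seen. Alternatives used other scalings and filters, DESeq2 1.42.0, limma-voom (limma 3.58.1), covariates, blocks, offsets for length and GC content (mgcv 1.9.3) and left-out libraries; the fit without KO 1 and KO 2 was chosen after seeing the data. In a simulation of KO and WT counts of 11091 genes, the edgeR test found 72% of the 2-fold and 99% of the 4-fold differences. Of its calls 2.84% were false, and in DESeq2 9.29% of the calls were false. The simulation gave every gene the same dispersion and planted differences only in genes above a minimum mean count. It held no number series and no libraries that stood apart. These percentages therefore describe the simulated counts and not the power or false calls in the deposited ones.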

Additional observations from a re-analysis of the deposited data

Results flagged for a closer look

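Csf2rb2, the interleukin-3-specific beta chain, stood at 3.29 CPM in WT 4, far above the other WT libraries (1.82 to 2.00 CPM). The gap made up 0.875 of the range of the WT group, above Dixon's critical value for 4 values. Over the 36 groups of 4 values examined, chance alone gives about 1.8 such gaps, and 1 was found. Csf2rb was also highest in WT 4, at 29.6 CPM. Without WT 4 the log2 difference of Csf2rb2 was −0.54, against −0.78 in all libraries.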

How the results depend on the processing

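Over 20 alternatives, 148 of the 160 values of the 8 tested receptors kept their sign and 12 turned. With offsets for transcript length and GC content, Csf1r was 0.18, Il6ra 0.069 and Il6st 0.10 on the log2 scale. Csf1r was 0.38 in the 1700 series alone, 0.03 without KO 2, 0.084 without WT 2 and 0.10 without KO 1 and KO 2. Csf3r was −0.42 in the 1600 series alone, −0.04 without KO 3, −0.01 without KO 4 and −0.12 without WT 3. Il6st was 0.0029 without KO 1 and KO 2. With 1 library left out, Csf1r ranged between −0.23 and 0.084 and Csf3r between −0.12 and 0.27. The cause was not tested. The median over the receptors was −0.35 with RLE and −0.40 with upper quartile scaling, 6 of 8 negative in both. The number of receptors that passed was 1 without a filter on low counts and 1 in DESeq2, Csf2ra in both, and 0 in the other 18 alternatives. The number with an interaction of genotype and number series was 2 without a filter and 0 to 2 with 1 library left out (2 without WT 4), while over all genes 645 and 628 had one in those fits, against 88 in all libraries.

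Pathway genes that passed numbered 1 in edgeR, 2 with upper quartile scaling, 10 without a filter, 10 in DESeq2, 0 in limma-voom, 2 with the number series as covariate, 0 with the offsets, 2 in the 1700 series alone, and 0 to 5 with 1 library left out: 5 without WT 2, 2 without KO 4 and 0 without KO 2, KO 3, WT 1, WT 3 or WT 4. Over all genes 119 passed in edgeR, 742 without a filter, 784 in DESeq2, 0 in limma-voom (2352 at an unadjusted p under 0.05, against 2344 in edgeR), 251 with the covariate, 1 with the offsets, 7 without KO 1 and KO 2, and 0 to 515 with 1 library left out, with 0 without KO 2, KO 3, WT 1 or WT 3 and 515 without WT 2. The Csf2rb2 share differed by −0.17 percentage points in the 1600 series and by −3.92 in the 1700 series. With fewer libraries or with blocks, the exact test of this share has too few assignments to reach 0.05. These alternatives therefore show the size of the difference only.

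The title numbers did not pair the libraries: deviations of same-numbered libraries correlated at −0.013, −0.028, −0.049 and 0.093, and 1 of 4 KO and 1 of 4 WT libraries correlated best with its own number. With the number as a replicate block 244 genes passed, 3 of them pathway genes and 0 receptors. Sh2b3 was not among the 3 (adjusted p 0.0638), whereas Cebpb (0.0145) and Klf4 (0.0496) were. The Csf2rb2 share kept its difference of −2.04 percentage points (exact sign-flip permutation test, p = 0.25). With 4 numbered pairs the sign-flip test cannot reach 0.05. Kit was at the floor, where depth allows no comparison, and Csf2rb2 rested on at most 53 counts a library.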
